A study of Mus musculus with 11 samples.

Results

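The interleukin-12 (IL-12) family was followed through microglia cultured from adult mice (the macrophages that reside in the brain) by the transcripts of 5 ligand subunit genes (Il12b, Il12a, Il23a, Il27 and Ebi3) and of both chains of the IL-12 receptor (Il12rb1 and Il12rb2). These 7 genes were taken by gene symbol from the 34745 genes of the deposited table. Of the 7, 4 (Il12b, Il27, Ebi3 and Il12rb1) reached 1 FPKM (fragments per kilobase of gene, scaled to library size) in at least 2 libraries and were among the 10938 genes tested. Il12a, Il23a and Il12rb2 stayed under 1 FPKM in every library and are described by their counts and by a fit without that filter.

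All libraries came from cerebral microglia of C57BL/6 mice aged 6 to 8 weeks, kept in culture for 10 to 14 days with TGF-beta1 (5 ng/ml) and M-CSF (10 ng/ml), so these growth factors were common to every group. The 11 libraries fell into a combined group that was given Pam3CSK4 and afterwards IFN-gamma (n = 3), a Pam3CSK4 group (n = 2), an IFN-gamma group (n = 3) and an untreated Control group (n = 3). The agonist Pam3CSK4, a lipopeptide sensed by Toll-like receptor 2, was used for 24 h (100 ng/ml). IFN-gamma, the interferon secreted by activated T and NK cells, was likewise used for 24 h (20 ng/ml). The labels do not say whether the lipopeptide was removed before IFN-gamma, when the singly treated and Control cells were collected, or whether replicates are separate cultures or animals. The p-values therefore measure the spread between these libraries, which may be technical. In replicates 2 and 3 of the combined group 1 label field writes the agonist's name with another last digit, and both were taken as Pam3CSK4.

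Cytokines of this family are secreted heterodimers, each joining a four-helix alpha chain to a receptor-like beta chain. IL-12 joins p35 (Il12a) to p40 (Il12b), IL-23 joins p19 (Il23a) to the same p40, IL-27 joins p28 (Il27) to Ebi3, and IL-35 joins p35 to Ebi3. IL-12 is known for driving IFN-gamma production by T and NK cells, IL-23 for sustaining IL-17-producing T cells, and IL-27 for restraining T cell responses. The receptor chain Il12rb1 binds p40 and pairs with Il12rb2 for IL-12 or with Il23r for IL-23, while IL-27 signals through Il27ra and Il6st (gp130). An alpha chain is usually the limiting partner, and p40 can also be secreted without one.

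Promoter sequences of 4 of the 7 genes (5 promoters, from 250 bases before to 50 after the transcript start) were found in the RefSeq table for GRCm38.p6. None was found for Il23a, Il12rb1 or Il27, of which Il27 rose with both treatments. Those shown belong to genes whose transcripts rose with Pam3CSK4 (Il12b, Il12a and Ebi3) or with IFN-gamma (Il12rb2). Each is given 5′ to 3′ on the gene's strand, and capitals mark matches on either strand to any of 5 motifs.
Il12b, chr11:44399813-44400112, plus strand: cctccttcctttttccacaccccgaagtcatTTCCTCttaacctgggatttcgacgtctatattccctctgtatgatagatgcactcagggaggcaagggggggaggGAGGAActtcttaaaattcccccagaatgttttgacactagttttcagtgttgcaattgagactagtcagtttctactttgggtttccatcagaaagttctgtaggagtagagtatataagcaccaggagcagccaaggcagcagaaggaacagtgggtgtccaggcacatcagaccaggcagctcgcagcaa
Il12a, chr3:68691174-68691473, plus strand: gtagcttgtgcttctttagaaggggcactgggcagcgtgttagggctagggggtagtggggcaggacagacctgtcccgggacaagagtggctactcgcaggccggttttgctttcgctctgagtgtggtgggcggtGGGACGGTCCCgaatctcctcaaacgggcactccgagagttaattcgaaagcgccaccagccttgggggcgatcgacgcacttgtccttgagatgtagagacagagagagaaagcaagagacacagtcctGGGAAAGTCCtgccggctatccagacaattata
Ebi3, chr17:55952373-55952672, plus strand: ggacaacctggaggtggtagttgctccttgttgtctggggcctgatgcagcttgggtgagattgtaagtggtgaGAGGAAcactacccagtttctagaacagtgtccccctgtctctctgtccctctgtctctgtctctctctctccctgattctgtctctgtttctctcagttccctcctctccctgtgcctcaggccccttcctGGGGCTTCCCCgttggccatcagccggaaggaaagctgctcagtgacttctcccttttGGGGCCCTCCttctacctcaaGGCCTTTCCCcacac
Il12rb2, chr6:67376139-67376438, minus strand: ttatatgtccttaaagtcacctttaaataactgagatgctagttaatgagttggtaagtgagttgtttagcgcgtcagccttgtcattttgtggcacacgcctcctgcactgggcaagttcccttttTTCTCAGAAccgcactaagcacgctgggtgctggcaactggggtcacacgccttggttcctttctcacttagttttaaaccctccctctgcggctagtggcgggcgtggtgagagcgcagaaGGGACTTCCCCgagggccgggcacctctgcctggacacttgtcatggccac

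The motifs searched were a kappaB motif of NF-kappaB (GGGNNNNNCC, in 50.8% of the 32851 promoters of the table), an IRF motif (GAAA, any 2 bases and GAAA again, 3.44%), a GAS motif (TTCNNNGAA, 8.30%), an AP-1 motif (TGANTCA, 7.81%) and a PU.1 motif (GAGGAA, 28.3%). Overlapping matches were counted separately. The Il12a promoter shown held 3 kappaB matches, the Ebi3 promoter 4 kappaB and 1 PU.1 match, and the Il12b promoter 2 PU.1 matches. The Il12rb2 promoter held 2 kappaB matches and 1 GAS match. A second Il12a start lies upstream, and its promoter held no match to any of the 5 motifs. A match is a description of the letters and not a bound site, and a site that departs from these letters would not be marked.

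Libraries held 15033702 to 20321017 counts, and replicates of each group differed beyond counting noise. In 6 of 6 microglial marker genes (Csf1r and Tmem119 among them) every library was above 1 FPKM. Their summed level was 518 to 575 FPKM in the combined group, 666 FPKM in both Pam3CSK4 libraries, 676 to 749 FPKM with IFN-gamma and 770 to 1130 FPKM in Control. Combined replicate 3, IFN-gamma replicate 1 and Control replicate 3 also carried transcripts of mural cells and fibroblasts, with summed levels over 9 markers of 55.6, 121 and 2210 FPKM against at most 3.84 FPKM in the other libraries; these 3 are called the mural and fibroblast libraries below. The 8 T and NK cell markers summed to at most 0.288 FPKM in any library, and Cd3e, Cd3d and Cd3g were at 0 in all of them. No marker of B cells (3 genes, summed level at most 0.246 FPKM) or astrocytes (4 genes, at most 0.414 FPKM) reached 1 FPKM. Of 3 endothelial markers only Cdh5 passed 1 FPKM, in some libraries, and the summed level was at most 13.9 FPKM. Because these are bulk libraries, fewer cells of a type and less RNA per cell cannot be told apart.

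Given Pam3CSK4, with or without IFN-gamma, the microglia carried the shared p40 transcript, Il12b, at 80.5 to 261 FPKM, against at most 0.647 FPKM in cells not given it, while IFN-gamma brought up Il27 and Il12rb1 instead. The combined and Pam3CSK4 libraries overlapped for Il12b, and the error of their difference was too wide to tell a change of either sign. Il27 and Il12rb1 in the combined group lay between their levels in the IFN-gamma and Pam3CSK4 groups. Ebi3 was present in all 11 libraries. Transcripts of both IL-27 subunits reached 1 FPKM in every treated group, and no group reached that level for both subunits of IL-12 or IL-23. For IL-12 in the combined group this turned on Il12a, at 0.555 to 0.744 FPKM.

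**Figure D1:**
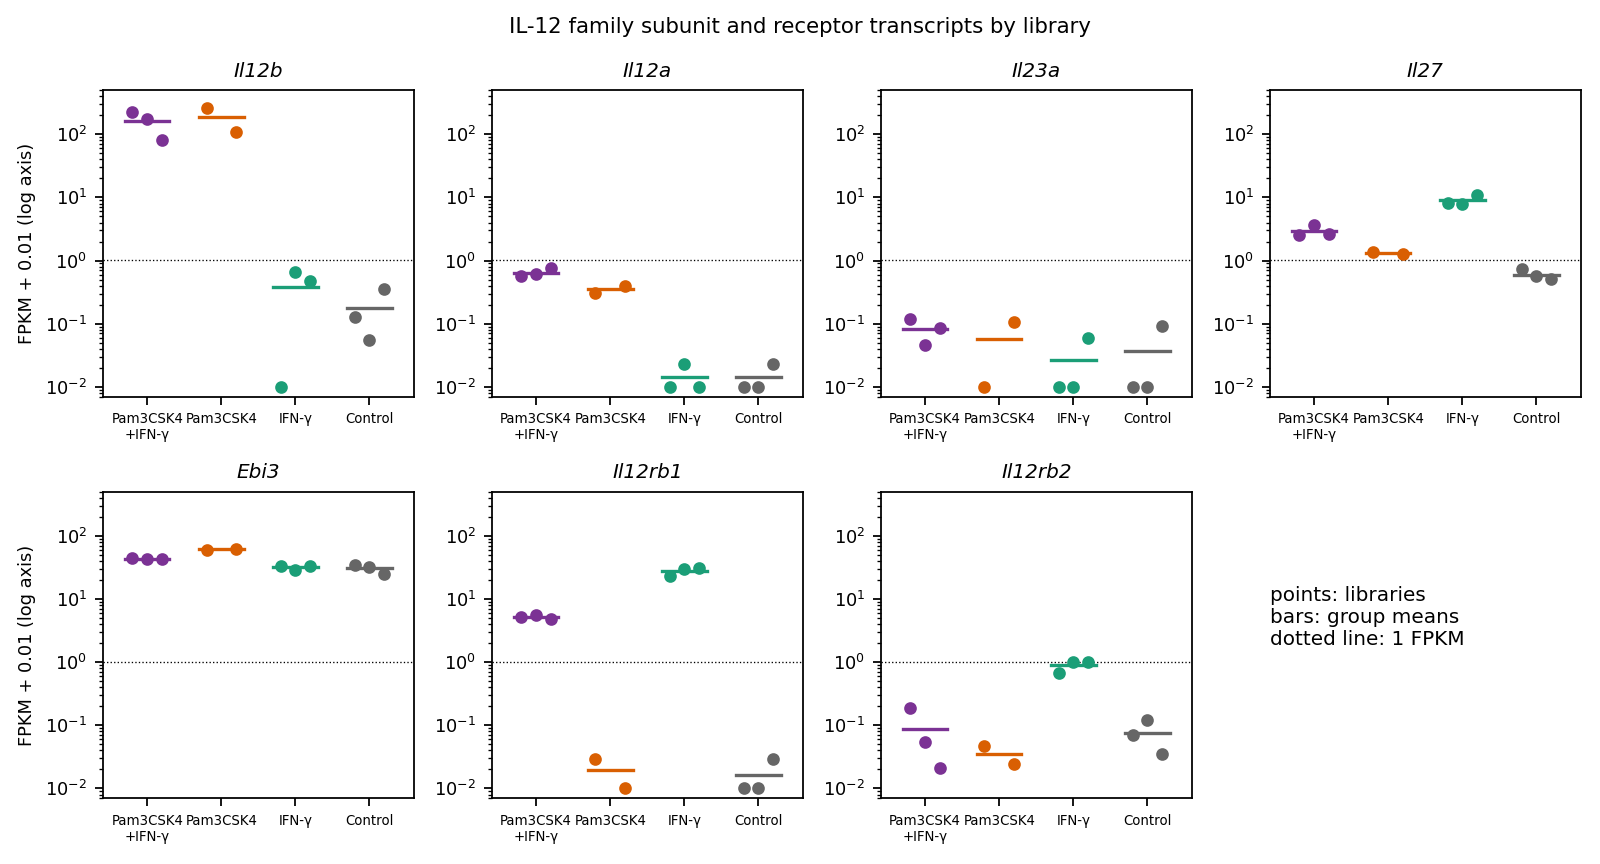
Transcript level of each of the 7 genes in every library, as FPKM + 0.01 on a log axis (values of 0 lie at 0.01), by group. Points are libraries, bars are group means and the dotted line marks 1 FPKM. The 5 libraries given Pam3CSK4 lie at 80.5 FPKM or more for Il12b, and the 6 given IFN-gamma lie at 4.81 FPKM or more for Il12rb1.

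Il12b (ENSMUSG00000004296, mm10 chr11:44400063-44414033) encodes p40, the chain shared by IL-12 and IL-23. It stood at 227, 177 and 80.5 FPKM in the combined libraries, at 261 and 108 FPKM in the Pam3CSK4 libraries, at 0, 0.647 and 0.471 FPKM in the IFN-gamma libraries and at 0.118, 0.0450 and 0.338 FPKM in Control. Every library given Pam3CSK4 was above every library not given it, and the combined and Pam3CSK4 libraries overlapped with each other, as did IFN-gamma and Control. The mean was 162 ± 74.5 FPKM in the combined group (SD, n = 3), 185 ± 108 FPKM with Pam3CSK4 (SD, n = 2), 0.373 ± 0.335 FPKM with IFN-gamma (SD, n = 3) and 0.167 ± 0.152 FPKM in Control (SD, n = 3).

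Against Control, Il12b rose by a log2 change of 10.05 ± 1.09 with Pam3CSK4 (edgeR quasi-likelihood test, Benjamini-Hochberg adjusted p = 9.56e-05; errors of log2 changes are SE throughout) and by 9.97 ± 1.07 in the combined group (edgeR adjusted p = 5.82e-05). Against IFN-gamma alone, the combined group was higher by 8.72 ± 1.00 (edgeR adjusted p = 0.000168). The difference between the combined and Pam3CSK4 groups was -0.08 ± 0.76 (edgeR adjusted p = 0.974), so a change of either sign lay within its error. IFN-gamma alone gave 1.25 ± 1.04 against Control (edgeR adjusted p = 0.364), and 2.86 (adjusted p = 0.0418) when the 3 mural and fibroblast libraries were left out. Of those 3, the combined one was the lowest of its group for Il12b, the IFN-gamma one was at 0 and the Control one was the highest of its group. Without Control replicate 3 the change against Control was 10.99 in the combined group and 11.07 with Pam3CSK4, and without Pam3CSK4 replicate 1 the Pam3CSK4 change was 9.30. The change against IFN-gamma was 8.14 without IFN-gamma replicate 1 and 9.42 without IFN-gamma replicate 2, and all of these stayed past the threshold.

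Some genes listed as markers of other myeloid cells moved with Il12b, at low level. Ccr7, a receptor of migrating dendritic cells, stood at 2.43 to 6.94 FPKM in the combined group, 5.47 to 8.68 FPKM with Pam3CSK4, 0 FPKM with IFN-gamma and at most 0.0320 FPKM in Control. Over the 7 dendritic cell markers the summed level was 4.02 to 8.81 FPKM in the combined group, 6.63 to 10.3 FPKM with Pam3CSK4, 9.56 to 11.2 FPKM with IFN-gamma and 4.30 to 10.0 FPKM in Control, with 1 marker at 1 FPKM or more in each library except 2 in each IFN-gamma library. Of the defining genes of dendritic cells, Flt3 was at 0.0558 to 0.104 FPKM in the combined group and 0.188 to 0.283 FPKM with Pam3CSK4. Flt3 was at 0 FPKM with IFN-gamma and at most 0.0108 FPKM in Control. Zbtb46 ran the other way, at most 0.106 FPKM in the combined group and 0.0617 FPKM with Pam3CSK4. It was at 0.17 to 0.277 FPKM with IFN-gamma and 0.19 to 0.525 FPKM in Control. Cd209a was at 0 in every library. The 1 marker at 1 FPKM or more was Ccr7 in libraries given Pam3CSK4. In Control it was Siglech, at 3.55 to 9.58 FPKM, which made up most of the summed level there. With IFN-gamma the 2 markers were Siglech and Clec9a. The 4 neutrophil markers summed to 9.09 to 13.6 FPKM in the combined group, 8.59 to 9.11 FPKM with Pam3CSK4, 3.92 to 6.76 FPKM with IFN-gamma and 3.89 to 7.86 FPKM in Control, while Ly6g was at most 0.0472 FPKM. Among these neutrophil markers Camp moved with Il12b, at 2.09 to 2.66 FPKM in the combined group and 4.04 to 4.33 FPKM with Pam3CSK4. Camp was at most 0.175 FPKM with IFN-gamma and 0.147 FPKM in Control. S100a8 was at 3.7 FPKM or more in every library and S100a9 at most 0.147 FPKM. Which cells carried these transcripts, and the part of dendritic cells or neutrophils in the Il12b result, was not tested.

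Il12a (ENSMUSG00000027776, mm10 chr3:68690644-68698547) encodes p35, the alpha chain that completes IL-12. It was measured at 0.555, 0.598 and 0.744 FPKM in the combined libraries, 0.300 and 0.383 FPKM in the Pam3CSK4 libraries, 0, 0.0128 and 0 FPKM in the IFN-gamma libraries and 0, 0 and 0.0133 FPKM in Control. The combined libraries were highest and the Pam3CSK4 libraries next, with no overlap between them or with the remaining 6, and the IFN-gamma and Control libraries overlapped. In summed counts this was 159 in the combined group, 48 with Pam3CSK4, 1 with IFN-gamma and 1 in Control. Scaled to library totals, the ratio to Control was 129 in the combined group (95% exact counting interval 22.8 to 5133) and 69.2 with Pam3CSK4 (11.8 to 2788), and these intervals, like those below, cover counting error only.

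In the fit without a filter on low values (22703 genes) Il12a rose against Control in the combined group (edgeR adjusted p = 0.000182) and with Pam3CSK4 (edgeR adjusted p = 0.000918), and was higher in the combined group than with IFN-gamma alone (edgeR adjusted p = 0.000387). The combined group carried 1.87 times the Il12a of the Pam3CSK4 group by counts (interval 1.34 to 2.64). That difference was not called in the fit, whose spread is shared over all groups, at 1.00 ± 0.70 on the log2 scale (edgeR adjusted p = 0.751). The edgeR adjusted p was 0.0558 with only these groups fitted and 0.182 without the 3 mural and fibroblast libraries. The single Control count was in replicate 3 and the single IFN-gamma count in replicate 2. Without Control replicate 3 the other Control libraries were at 0, and Il12a was at least 27.2-fold higher in the combined group and at least 14.6-fold higher with Pam3CSK4, taking 3 counts over the remaining libraries as the limit. Without IFN-gamma replicate 2, the combined group was at least 28.0-fold higher than the remaining IFN-gamma libraries. The calls held without either library.

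Il23a (ENSMUSG00000025383, mm10 chr10:128296140-128298084), which encodes p19 of IL-23, was not detected above the counting limit in any group. It had 3, 1 and 2 counts in the combined libraries, 0 and 2 in the Pam3CSK4 libraries, 0, 0 and 1 in the IFN-gamma libraries and 0, 0 and 2 in Control, 11 counts in all. No library exceeded 3 counts, which correspond to 0.109 to 0.147 FPKM depending on the library, so differences under that level could not be seen at this depth. Il23a was called in no comparison of the fit without a filter.

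Il27 (ENSMUSG00000044701, mm10 chr7:126589010-126594941) encodes p28, the alpha chain of IL-27. Its level was 2.57, 3.61 and 2.61 FPKM in the combined libraries, 1.34 and 1.26 FPKM in the Pam3CSK4 libraries, 8.14, 7.76 and 11.0 FPKM in the IFN-gamma libraries and 0.717, 0.557 and 0.492 FPKM in Control. The 4 groups did not overlap, and IFN-gamma alone gave the highest level. Il27 averaged 2.93 ± 0.592 FPKM in the combined group (SD, n = 3), 1.30 ± 0.0548 FPKM with Pam3CSK4 (SD, n = 2), 8.95 ± 1.75 FPKM with IFN-gamma (SD, n = 3) and 0.589 ± 0.115 FPKM in Control (SD, n = 3).

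Il27 rose with each treatment. The log2 change against Control was 4.01 ± 0.29 with IFN-gamma (edgeR adjusted p = 7.54e-06), 2.40 ± 0.27 in the combined group (edgeR adjusted p = 8.70e-05) and 1.12 ± 0.30 with Pam3CSK4 (edgeR adjusted p = 0.0146). In IFN-gamma-treated cells the prior agonist went with a lower level, the combined group being 3.07-fold below IFN-gamma alone (-1.62 ± 0.25, edgeR adjusted p = 0.00106). The combined group was above Pam3CSK4 alone by 1.28 ± 0.29 (edgeR adjusted p = 0.0259). The interaction, which subtracts the Pam3CSK4 effect in cells without IFN-gamma from its effect in cells with it, was -2.73 ± 0.39 (edgeR adjusted p = 0.00245). Il27 was the only 1 of the 4 tested members with a called interaction, where 16.0% of all genes tested were called and 8.02% were lower.

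The smaller Il27 differences rested on few counts, 45 in the Pam3CSK4 group and 29 in Control. The rise with Pam3CSK4 missed the threshold without Pam3CSK4 replicate 1 (adjusted p = 0.0669), without replicate 2 (0.0567), when only those groups entered the fit (0.0853) and without the 3 mural and fibroblast libraries (0.0683). The difference between the combined and Pam3CSK4 groups missed it without Pam3CSK4 replicate 1 (0.152), Pam3CSK4 replicate 2 (0.168) or combined replicate 2 (0.0866). Il27 shares 103 bases with the opposite-strand gene Apobr, and whether reads were counted by strand is not given in the sources used here. Apobr ran at 9.93 to 10.9 FPKM in the combined group, 7.20 to 7.40 FPKM with Pam3CSK4, 10.6 to 18.4 FPKM with IFN-gamma and 15.0 to 17.3 FPKM in Control.

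Ebi3 (ENSMUSG00000003206, mm10 chr17:55952623-55957021) encodes the beta chain of IL-27 and IL-35. It was at 44.3, 42.7 and 43.3 FPKM in the combined libraries, 60.2 and 62.4 FPKM in the Pam3CSK4 libraries, 33.1, 28.9 and 32.9 FPKM in the IFN-gamma libraries and 34.5, 32.3 and 24.5 FPKM in Control. IFN-gamma and Control libraries overlapped, the combined libraries lay above both, and the Pam3CSK4 libraries were highest. Its range across groups was thus narrow beside those of Il12b and Il27, since untreated cells already carried it at 30.4 ± 5.22 FPKM (SD, n = 3).

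Ebi3 rose by 0.98 ± 0.17 on the log2 scale with Pam3CSK4 (edgeR adjusted p = 0.00145) and by 0.59 ± 0.15 in the combined group (edgeR adjusted p = 0.0103) against Control, while IFN-gamma gave 0.14 ± 0.15 (edgeR adjusted p = 0.483). The combined group was above IFN-gamma by 0.45 ± 0.15 (edgeR adjusted p = 0.0465), a call lost in 9 of the 11 fits that left out 1 library (adjusted p up to 0.135, without IFN-gamma replicate 2) and kept without Control replicate 1 or 3. Against Pam3CSK4 the combined group stood at -0.39 ± 0.17 (edgeR adjusted p = 0.218), which became a call without Control replicate 3 (adjusted p = 0.0065) and without the 3 mural and fibroblast libraries (0.0254). The interaction was -0.53 ± 0.23 (edgeR adjusted p = 0.143) and was called without Control replicate 3 (-0.37, adjusted p = 0.0282). An antisense gene, Gm16712, overlaps 2251 bases of Ebi3 and reached at most 1.53 FPKM.

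**Figure D2:**
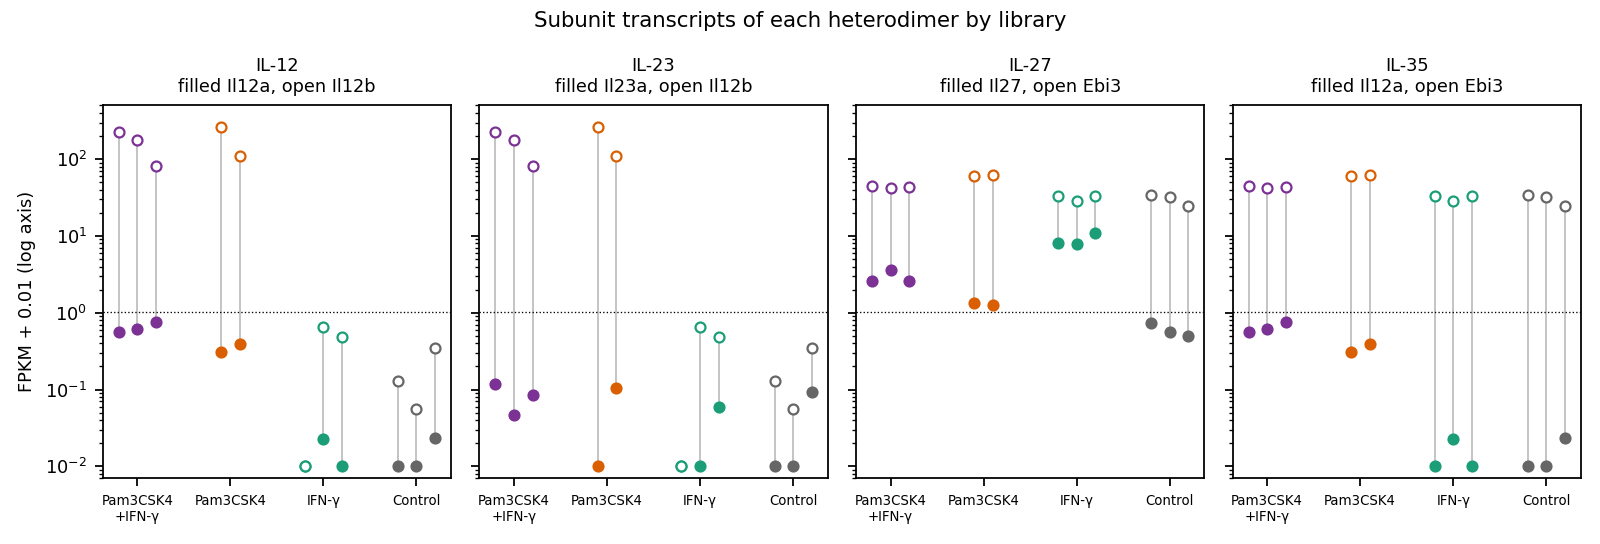
Levels of both subunit transcripts of each heterodimer in every library, as FPKM + 0.01 on a log axis, joined by a line per library; the dotted line marks 1 FPKM. For IL-27 both ends lie above 1 FPKM in all 8 treated libraries, while for IL-12, IL-23 and IL-35 the alpha chain lies below 1 FPKM in every library.

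Setting the subunits side by side answers which heterodimers the transcripts of each group would permit. A subunit was counted as present where it reached 1 FPKM in every library of the group, a limit on transcripts that says nothing of protein. By that limit both IL-27 subunits were present in the combined, Pam3CSK4 and IFN-gamma groups and not in Control, where Il27 lay at 0.492 to 0.717 FPKM. IL-12, IL-23 and IL-35 had both subunits present in no group. At a limit of 0.5 FPKM the combined group also had both subunits of IL-12 and of IL-35, and at a limit of 5 FPKM only IL-27 in the IFN-gamma group was left. FPKM is scaled to gene length, so the same limit asks for more counts of Il12a than of Il27. In the combined libraries Il12a had 47, 51 and 61 counts and Il27 had 53, 75 and 52. With Pam3CSK4, Il27 passed the limit of 1 FPKM on 25 and 20 counts.

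The partners were far from equal in level. Per library, Il12b exceeded Il12a by 108 to 409 times in the combined group and by 283 to 870 times with Pam3CSK4. Il12b exceeded Il23a by 1068 to 4898 times in the combined libraries, although Il23a there was within 3 counts. Ebi3 exceeded Il27 by 11.8 to 17.2 times in the combined group, 45.0 to 49.5 times with Pam3CSK4, 3.00 to 4.06 times with IFN-gamma and 48.1 to 58.0 times in Control. Among ligand subunit pairs with both subunits at 1 FPKM, Il27 and Ebi3 in IFN-gamma-treated cells were the nearest to each other. In every library where both were detected, the alpha chain was the lower partner.

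**Figure D3:**
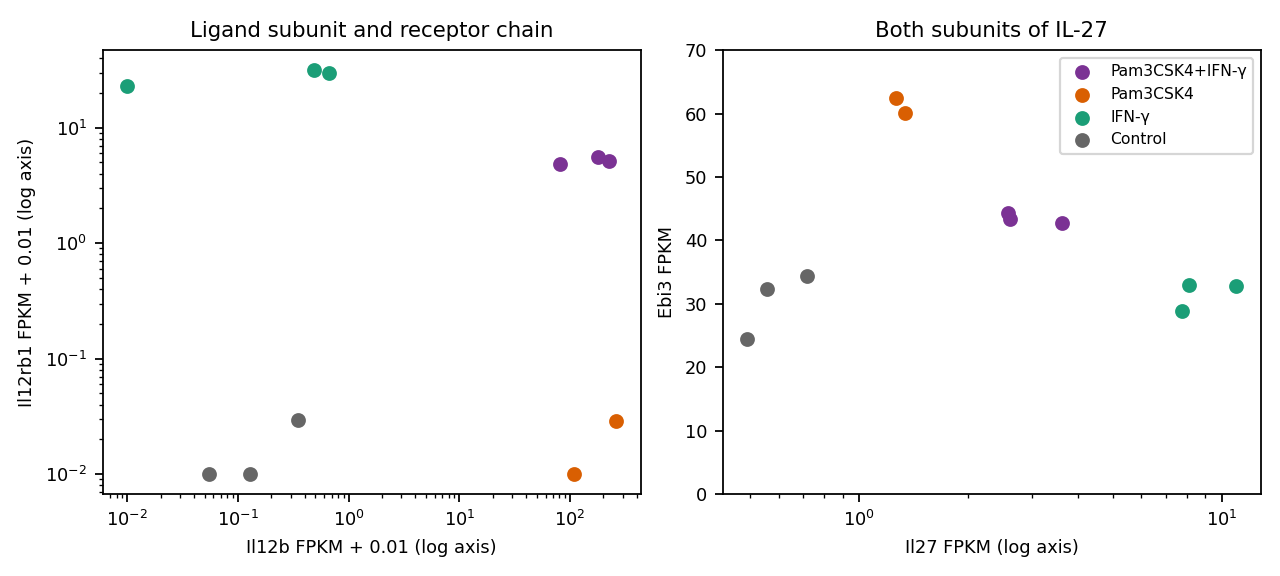
Left, Il12rb1 against Il12b in each library, both as FPKM + 0.01 on log axes; right, Ebi3 (FPKM, linear axis) against Il27 (FPKM, log axis). On the left each of the 4 groups occupies its own corner, and only the combined libraries are above 1 FPKM for both genes; on the right the IFN-gamma libraries reach 7.76 to 11.0 FPKM of Il27 at 28.9 to 33.1 FPKM of Ebi3.

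Il12rb1 (ENSMUSG00000000791, mm10 chr8:70808449-70821424) encodes the receptor chain that binds p40. It stood at 5.14, 5.58 and 4.81 FPKM in the combined libraries, 0.0190 and 0 FPKM in the Pam3CSK4 libraries, 23.1, 29.7 and 31.4 FPKM in the IFN-gamma libraries and 0, 0 and 0.0194 FPKM in Control. Every library given IFN-gamma was above every library not given it, and the combined libraries were all below the IFN-gamma libraries. The summed counts were 894 in the combined group, 1 with Pam3CSK4, 4057 with IFN-gamma and 1 in Control.

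The ratio of Il12rb1 counts to Control was 3926 with IFN-gamma (95% exact counting interval 704 to 155103; edgeR adjusted p = 1.02e-07) and 726 in the combined group (interval 130 to 28713; edgeR adjusted p = 3.64e-07). Relative to Pam3CSK4 alone the combined group had 504 times the level (interval 90.2 to 19924; edgeR adjusted p = 6.15e-06). Cells given Pam3CSK4 before IFN-gamma carried 5.46-fold less Il12rb1 than cells given IFN-gamma alone (-2.45 ± 0.21, edgeR adjusted p = 3.38e-05). The single counts in Control and Pam3CSK4 were in Control replicate 3 and Pam3CSK4 replicate 1. Without Control replicate 3, Il12rb1 was at least 828-fold higher with IFN-gamma and at least 153-fold higher in the combined group than in the Control libraries left, and without Pam3CSK4 replicate 1 the combined group was at least 77.1-fold higher than the library left, all by a limit of 3 counts. The calls held without either library. The interaction, whose estimate rests on those single counts, was not called (edgeR adjusted p = 0.350).

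Il12rb2 (ENSMUSG00000018341, mm10 chr6:67291318-67376188), the signalling chain of the IL-12 receptor, remained under 1 FPKM everywhere. It was at 0.176, 0.0436 and 0.0113 FPKM in the combined libraries, 0.0363 and 0.0143 FPKM in the Pam3CSK4 libraries, 0.654, 0.984 and 0.998 FPKM in the IFN-gamma libraries and 0.0590, 0.112 and 0.0248 FPKM in Control. The IFN-gamma libraries stood above all the others, which overlapped among themselves. In counts, 200 with IFN-gamma against 14 in Control gave a ratio of 13.8 (interval 8.05 to 25.7), and 21 in the combined group were 11.3-fold fewer than with IFN-gamma, scaled to totals (interval 7.22 to 18.7).

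In the fit without a filter, Il12rb2 rose with IFN-gamma against Control by 3.85 ± 0.86 (edgeR adjusted p = 0.00948), and by 4.54 without Control replicate 2. The combined group was lower than IFN-gamma by a log2 change of -3.48 ± 0.84 (edgeR adjusted p = 0.0170). That difference missed the threshold without combined replicate 2 (-3.21, adjusted p = 0.0793) and was -4.89 without combined replicate 1. It stood 0.38 ± 0.83 from Control (edgeR adjusted p = 0.809) and 1.64 ± 1.03 from Pam3CSK4 (edgeR adjusted p = 0.692; 2.12 with adjusted p = 0.0309 without the 3 mural and fibroblast libraries). Il12rb2 shares 6419 bases with the opposite-strand gene Serbp1, which ran at 5.45 to 8.95 FPKM across the 11 libraries.

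Clec9a, a receptor gene of dendritic cells, was, like Il27 and both receptor chains, highest with IFN-gamma, at 0.110 to 0.291 FPKM in the combined group, 0.0270 to 0.0318 FPKM with Pam3CSK4, 4.95 to 7.97 FPKM with IFN-gamma and 0.0987 to 0.219 FPKM in Control. Other genes of the dendritic list did not share this order. Xcr1 was highest in the combined group, at 0.608 to 0.812 FPKM. It was at 0.116 to 0.295 FPKM with Pam3CSK4, 0.24 to 0.555 FPKM with IFN-gamma and 0.0747 to 0.1 FPKM in Control. Zbtb46 with IFN-gamma (0.17 to 0.277 FPKM) overlapped Control (0.19 to 0.525 FPKM). Flt3 was at 0 in the IFN-gamma libraries, where the summed dendritic marker level overlapped Control. That sum includes Siglech, at 2.72 to 4.34 FPKM with IFN-gamma and 3.55 to 9.58 FPKM in Control, so its overlap hides the rise of Clec9a. The part of dendritic cells in these results was not tested. The T and NK cell markers, which mark the cells best known for Il12rb1 and Il12rb2, summed to at most 0.0247 FPKM in the libraries given IFN-gamma.

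**Figure D4:**
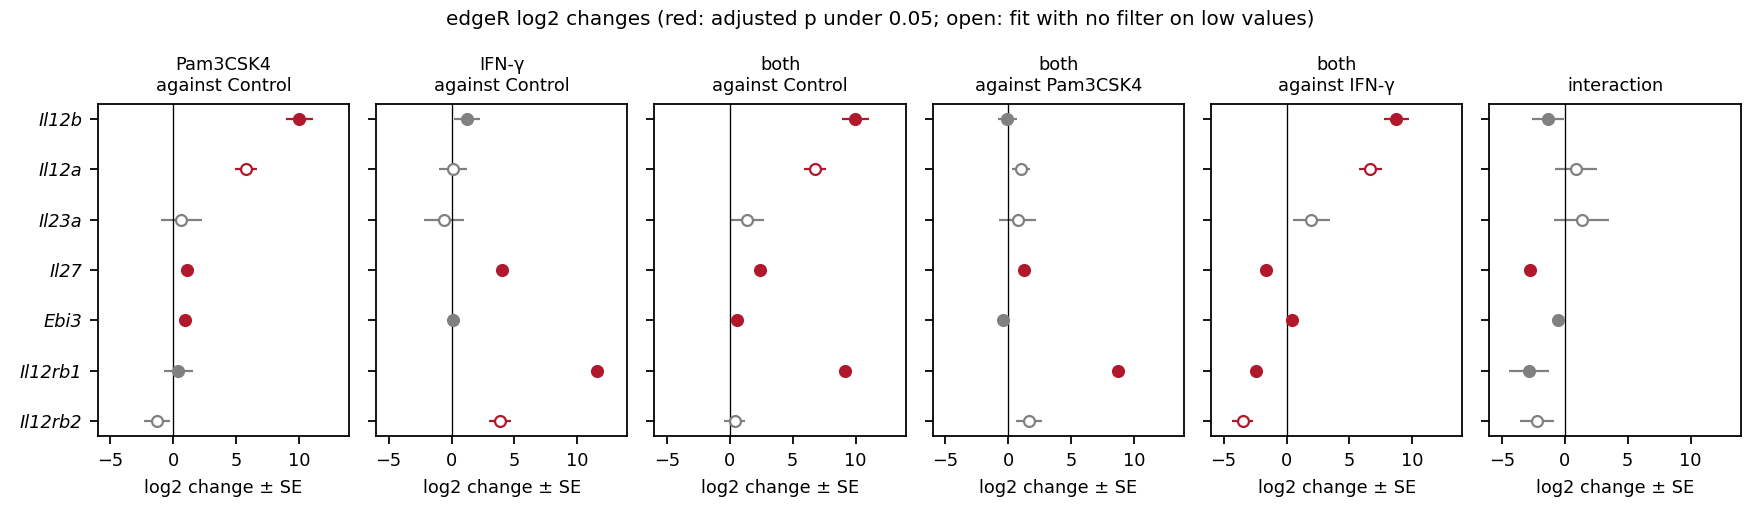
Log2 change ± SE of each gene in 6 comparisons (edgeR), with red for adjusted p under 0.05 and open points for the 3 genes read from the fit without a filter; both stands for the combined group. Il27 is the only red point under interaction. Positions of Il12a and Il12rb1 against groups with 1 count depend on the fit's prior count, and their count ratios are in the text.

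Counted together, 4 of the 4 tested members rose in the combined group against Control, where 47.6% of all 10938 tested genes were called in either direction and 23.4% were higher. With Pam3CSK4 alone 3 of 4 rose (Il12b, Il27 and Ebi3), beside 41.4% of all genes called and 20.0% higher, and with IFN-gamma alone 2 of 4 (Il27 and Il12rb1), beside 41.6% called and 20.0% higher. The combined group against Pam3CSK4 had 2 of 4 higher (Il27 and Il12rb1), beside 9.11% called and 6.06% higher. Against IFN-gamma it had 2 higher (Il12b and Ebi3) and 2 lower (Il27 and Il12rb1), beside 34.2% called, 17.0% higher and 17.2% lower. In the fit without a filter on low values, which holds all 7 members, 5 were called in the combined group, 4 with Pam3CSK4 and 3 with IFN-gamma, each against Control, beside 22.7%, 18.5% and 17.8% of 22703 genes. There, 1 was called in the combined group against Pam3CSK4, 5 against IFN-gamma and 1 for the interaction, beside 3.24%, 14.2% and 4.76%. The 3 comparisons with Control share its libraries, and members under 1 FPKM throughout could not enter the counts of 4. Il12b, Il27 and Il12rb1 passed the filter through 5, 8 and 6 libraries, all of them treated. The 5 of Il12b were those given Pam3CSK4, and the 6 of Il12rb1 were those given IFN-gamma. In every comparison, between treated groups as well as against Control, the counts of 4 are therefore a description and nothing is read from them.

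The remaining receptor chains were read from a list of 10 partner receptors and signalling genes, of which 8 were tested. Il27ra, the IL-27 binding chain, was at 0.193 to 0.224 FPKM in the combined group, 0.0411 to 0.0727 FPKM with Pam3CSK4, 1.70 to 2.38 FPKM with IFN-gamma and 0.501 to 1.07 FPKM in Control. It rose with IFN-gamma (1.29 ± 0.31, edgeR adjusted p = 0.00827), fell with Pam3CSK4 (-3.87 ± 0.45, edgeR adjusted p = 0.000142) and was lower in the combined group than with IFN-gamma (-3.22 ± 0.33, edgeR adjusted p = 9.14e-05). Il6st, the signalling chain gp130, was at 1.24 to 1.35 FPKM in the combined group, 0.708 to 0.918 FPKM with Pam3CSK4, 1.99 to 3.39 FPKM with IFN-gamma and 5.39 to 8.23 FPKM in Control. It fell with Pam3CSK4 (-3.01 ± 0.23, edgeR adjusted p = 1.46e-05) and with IFN-gamma (-1.15 ± 0.19, edgeR adjusted p = 0.00111), and its interaction was 1.91 ± 0.28 (edgeR adjusted p = 0.00305). Both IL-27 receptor chains reached 1 FPKM in every library of the IFN-gamma group and of no other group. Il23r, the IL-23 binding chain, ran at 0.0199 to 0.247 FPKM in the combined group, at most 0.0517 FPKM with Pam3CSK4, 0 FPKM with IFN-gamma and at most 0.0225 FPKM in Control, and was not among the tested genes. No group therefore had both chains of the IL-12 or the IL-23 receptor at 1 FPKM. For the IL-12 receptor this turned on Il12rb2, at 0.654 to 0.998 FPKM with IFN-gamma. At a limit of 0.5 FPKM the IFN-gamma group had both IL-12 receptor chains, and the IFN-gamma and Control groups had both IL-27 receptor chains. At 5 FPKM no group had both chains of any of these receptors.

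Of the 8 tested genes of that list, 5 rose and 2 fell in the combined group, 4 rose and 2 fell with Pam3CSK4, and 5 rose and 1 fell with IFN-gamma, each against Control. The median log2 change was 0.799, 0.232 and 0.884 in those comparisons, beside -0.039, -0.043 and -0.069 over all tested genes, of which 47.6%, 41.4% and 41.6% were called. The feedback inhibitor Socs1 stood at 270 to 293 FPKM in the combined group, 14.2 to 18.8 FPKM with Pam3CSK4, 419 to 463 FPKM with IFN-gamma and 1.04 to 1.69 FPKM in Control. Socs3, which binds gp130, stood at 257 to 263 FPKM in the combined group, 69.1 to 81.5 FPKM with Pam3CSK4, 67.5 to 83.8 FPKM with IFN-gamma and 1.15 to 10.8 FPKM in Control. Jak2, a kinase of the IL-12 and IL-23 receptors, was at 69.3 to 83.1 FPKM in the combined group, 78.2 to 92.4 FPKM with Pam3CSK4, 18.0 to 21.8 FPKM with IFN-gamma and 13.3 to 14.7 FPKM in Control. Stat4, which carries the IL-12 signal in T cells, was at most 0.328 FPKM in any library and was not tested.

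**Figure D5:**
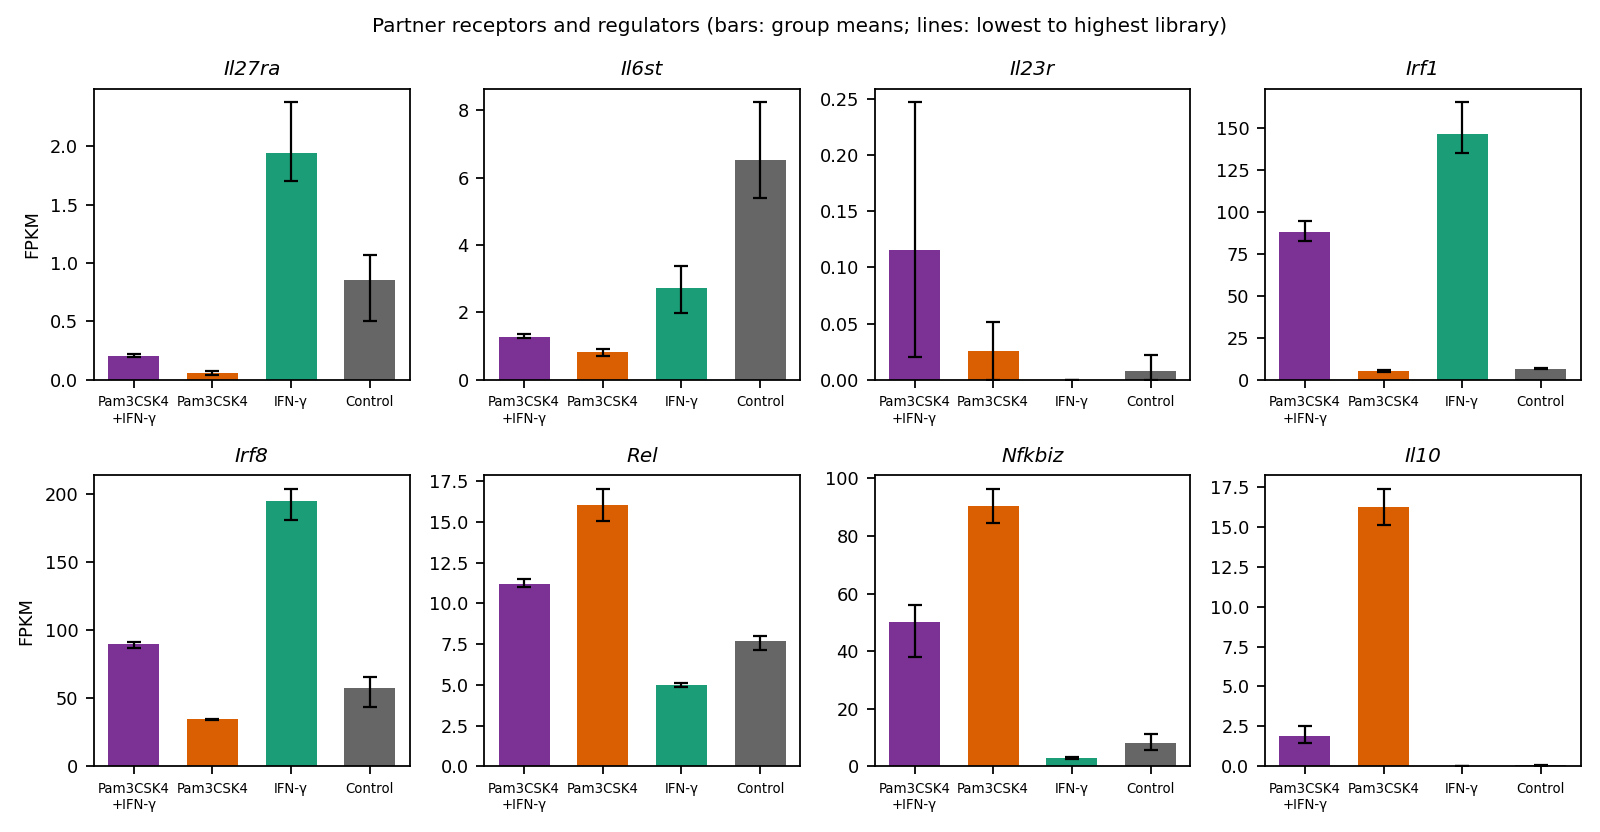
FPKM of 8 partner receptor, regulator and cytokine genes by group on linear axes starting at 0. Bars are group means and lines run from the lowest to the highest library; Il27ra is highest with IFN-gamma (1.70 to 2.38 FPKM), and Rel, Nfkbiz and Il10 are highest with Pam3CSK4.

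Regulators known to act on the ligand subunit genes, transcription factors and the cytokine gene Il10, formed a list of 24, all tested. Of these, 16 rose and 0 fell in the combined group, 11 rose and 2 fell with Pam3CSK4, and 11 rose and 3 fell with IFN-gamma, each against Control, with median log2 changes of 0.597, 0.385 and 0.491. Over all tested genes 47.6%, 41.4% and 41.6% were called in those comparisons, with medians of -0.039, -0.043 and -0.069. Il10 is among the genes that rose in the combined group and with Pam3CSK4. Rel, the NF-kappaB subunit c-Rel known to act on Il12b and Il12a, was at 11.0 to 11.5 FPKM in the combined group, 15.0 to 17.0 FPKM with Pam3CSK4, 4.85 to 5.10 FPKM with IFN-gamma and 7.12 to 8.01 FPKM in Control. It rose with Pam3CSK4 (1.04 ± 0.11, edgeR adjusted p = 7.78e-05) and fell with IFN-gamma (-0.53 ± 0.10, edgeR adjusted p = 0.00246). Irf1, an interferon-induced factor known to act on Il12a and Il27, was at 82.5 to 94.8 FPKM in the combined group, 4.60 to 5.61 FPKM with Pam3CSK4, 135 to 165 FPKM with IFN-gamma and 6.18 to 7.24 FPKM in Control. It rose with IFN-gamma (4.55 ± 0.16, edgeR adjusted p = 1.21e-07) and was lower in the combined group than with IFN-gamma (-0.74 ± 0.14, edgeR adjusted p = 0.00324).

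Irf8, a myeloid partner of Irf1, followed the same order of groups at the top, with 87.3 to 91.5 FPKM in the combined group, 34.1 to 35.1 FPKM with Pam3CSK4, 181 to 204 FPKM with IFN-gamma and 43.4 to 65.4 FPKM in Control. Irf8 rose with IFN-gamma (1.84 ± 0.19, edgeR adjusted p = 6.59e-05) and fell with Pam3CSK4 (-0.77 ± 0.21, edgeR adjusted p = 0.0148). Nfkbiz, an inducible nuclear NF-kappaB cofactor, was at 37.9 to 56.2 FPKM in the combined group, 84.7 to 96.4 FPKM with Pam3CSK4, 2.35 to 3.21 FPKM with IFN-gamma and 5.77 to 11.2 FPKM in Control. Batf rose with Pam3CSK4 (4.25 ± 0.24, edgeR adjusted p = 2.38e-06) and less with IFN-gamma (1.43 ± 0.22, edgeR adjusted p = 0.000764). Batf3 rose with IFN-gamma (2.53 ± 0.36, edgeR adjusted p = 0.000543).

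Among 12 other cytokine genes of activated myeloid cells, 11 were tested, and 5 rose and 0 fell in the combined group, 5 rose and 2 fell with Pam3CSK4, and 2 rose and 3 fell with IFN-gamma, each against Control. The medians were 0.669, 0.518 and -1.05, beside -0.039, -0.043 and -0.069 over all tested genes, of which 47.6%, 41.4% and 41.6% were called. Il10, an inhibitor of p40 expression, was at 1.44 to 2.54 FPKM in the combined group, 15.2 to 17.4 FPKM with Pam3CSK4, 0 FPKM with IFN-gamma and at most 0.0965 FPKM in Control. Il10 was lower in the combined group than with Pam3CSK4 (-3.01 ± 0.46, edgeR adjusted p = 0.00694). For Il12b that comparison gave -0.08 ± 0.76 (edgeR adjusted p = 0.974), an error too wide to tell a change of either sign. A link between Il10 and Il12b was not tested. Tnf rose with Pam3CSK4 (5.21 ± 0.31, edgeR adjusted p = 3.37e-06) and with IFN-gamma (2.70 ± 0.27, edgeR adjusted p = 5.58e-05). Against Control, Il1b fell with IFN-gamma (-3.54 ± 0.25, edgeR adjusted p = 7.46e-06) and rose with Pam3CSK4 (1.195 ± 0.245, edgeR adjusted p = 0.00395). After the agonist Il1b went the other way, the combined group being above Pam3CSK4 alone (1.818 ± 0.265, edgeR adjusted p = 0.00251). The lists overlap in Il10.

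The genes whose levels ran most closely with each tested member over the 11 libraries were ranked by Pearson correlation of log2(FPKM + 1), as a description with no test, since the 4 groups set most of the variation. For Il12b they were Fut8 (r = 0.997), Adora2a (0.996) and Vnn3 (0.994), for Il27 Ccdc86 (0.987), H2-Eb1 (0.982) and Max (0.982). For Ebi3 they were Fam213b (0.980), Glipr1 (0.978) and Agfg2 (0.973), and for Il12rb1 Atp13a1 (0.997), Bst1 (0.995) and Pml (0.995). Adora2a, an adenosine receptor, averaged 16.0 FPKM in the combined group, 15.5 FPKM with Pam3CSK4, 0.156 FPKM with IFN-gamma and 0.137 FPKM in Control. H2-Eb1, an MHC class II chain, averaged 42.5 FPKM in the combined group, 1.99 FPKM with Pam3CSK4, 1290 FPKM with IFN-gamma and 1.29 FPKM in Control. With a pseudocount of 0.1 in place of 1, the ranks of these genes moved, Atp13a1 to 15 and H2-Eb1 to 12 for example, so the first places depend on how low levels are scaled.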

How the data were processed

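The authors deposited 1 table of read counts and FPKM values per gene and library, per the file headers. Deposited FPKM was proportional to the count over the library total within each gene, with relative deviations of at most 3.17e-06 in 6617 genes above 200 counts throughout. TopHat2 2.1.0, Cufflinks 2.1.1, Cuffdiff and mm10 were named without roles, per the submitters' processing notes. Counting tool, annotation and strand setting: not given in the sources used here.

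Deposited counts were fitted in edgeR 4.0.16 (quasi-likelihood test, R 4.3.3, TMM scaling, 1 fit of 4 group means over 11 libraries), two-sided, with Benjamini-Hochberg adjustment over all genes tested and a threshold of 0.05. The filter kept genes that reached 1 FPKM in 2 or more libraries, and members outside it were read from a fit of every gene with a count. SE was derived from the log2 change and its F statistic. The fit was tested on simulated counts. Depth was 15033702 to 20321017 counts per library, and groups of 2 and 3 libraries limit the precision. Ratios of summed counts were scaled to library totals, with exact 95% intervals, and 3 counts were the limit for a count of 0. The 7 members and the gene lists were chosen with earlier results of these data known. All members are named, with up to 4 called genes per list and comparison, 7 set genes (Il6st, Il27ra, Il23r, Irf1, Irf8, Rel and Il10) and the 3 genes most like each member. Alternatives were RLE scaling, DESeq2 1.42.0, no filter, filterByExpr, replicate blocks, only the groups compared, each library left out, the 3 mural and fibroblast libraries left out, presence limits of 0.5 and 5 FPKM and a pseudocount of 0.1. A microglial marker whose symbol the table repeats was not used, and some list genes are not reported here.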

Additional observations from a re-analysis of the deposited data

Results flagged for a closer look

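The Pam3CSK4 effect on Il27 differed between cells with and without IFN-gamma, by -2.73 ± 0.39 on the log2 scale (edgeR adjusted p = 0.00245). In IFN-gamma-treated cells, Il27 was 2.57 to 3.61 FPKM with the agonist and 7.76 to 11.0 FPKM without it. In cells without IFN-gamma, it was 1.26 to 1.34 FPKM with the agonist and 0.492 to 0.717 FPKM without it. The difference in effect was called in every alternative run, from -2.54 to -2.93 and with adjusted p up to 0.0142.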

How the results depend on the processing

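Replicate numbers gave no clear pairing of the libraries: 6 of 15 correlations of deviations were over 0.1 by title number and 7 of 15 by description number (-0.60 to 0.54). Deviations from means of 2 or 3 libraries depend on each other, so these correlations cannot exclude shared cultures or days. With either replicate block, 1 of the 4 tested members was called between the combined and Pam3CSK4 groups, where 2 were called without it. Il27 in that comparison (adjusted p = 0.0746 and 0.0831) and Ebi3 in the combined group against IFN-gamma (0.0697 and 0.0750) lost their calls under the title and description blocks. Without a filter on low values 1 of 7 members was called between the combined and Pam3CSK4 groups, and Ebi3 against IFN-gamma lost its call without a filter (0.0709) and with filterByExpr (0.0729). Genes called with Pam3CSK4 against Control numbered 4532, and 2642 with only those groups fitted. Between the combined and Pam3CSK4 groups 996 genes were called, 1536 by DESeq2, 2314 with only those groups and 2131 without the 3 mural and fibroblast libraries. For the interaction 1753 genes were called, 3105 without those libraries and 1080 without a filter. Combinations of a heterodimer and a group with both subunits present numbered 3 (IL-27 in the 3 treated groups), and 5 at 0.5 FPKM and 1 at 5 FPKM.

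With 1 library left out at a time, genes called ranged from 2874 to 5652 (Pam3CSK4 against Control), 3558 to 5291 (IFN-gamma against Control), 4320 to 6035 (combined group against Control), 403 to 2021 (against Pam3CSK4), 2683 to 4920 (against IFN-gamma) and 664 to 3243 (interaction). Members called of 4 ranged from 2 to 3, 2 to 2, 4 to 4, 1 to 3, 3 to 4 and 1 to 2 in that order, and those combinations stayed at 3. A Pam3CSK4 group left with 1 library was assumed to vary like the other groups. Over all alternatives, 731 log2 changes of members stayed on their side of the threshold, 24 lost a call and 6 gained one. The sign differed in 20 cases over 6 members, of which 0 were called in the fit reported or in the alternative. The cause was not tested in any case. Low counts limit Il12a, Il23a and Il12rb2.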
